A study of Mus musculus with 5 samples.

Results

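The metallothionein genes Mt1, Mt2 and Mt3 were followed on 5 Affymetrix arrays of mouse ventromedial hypothalamus (VMH), a hypothalamic nucleus that takes part in feeding and energy use. The members were all probe sets that the platform annotation assigns to these 3 genes alone, which gave 4 probe sets out of 22690 on the array. Of these, 3 probe sets, 1 for each gene, were bright enough to pass the filter on low values, and they stand among 6658 measured genes. The arrays came from C57Bl/6 mice under isoflurane that received electroconvulsive seizure (ECS) through ear clip electrodes, or were handled without current (sham). Each of the 5 groups is a single array: sham collected at 2 h, 1 shock collected at 2 h or 6 h, and 7 shocks collected at 2 h or 6 h after the last shock. Each array held RNA pooled from 2 or 3 animals, taken by laser microdissection and amplified from 2 ng. No sham was collected at 6 h, so comparisons of the 6 h arrays with sham are not matched in time. With 1 array per group there is no spread between replicates and no test, so differences are described by size and their precision is limited by having 5 arrays.

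Metallothioneins are small cysteine-rich proteins that bind zinc and copper through their thiols and also react with oxidants. Mt1 and Mt2 are the inducible forms, expressed in brain mainly by astrocytes, and their transcription rises with zinc, glucocorticoids, cytokines of the IL-6 family and oxidative stress. The zinc sensor MTF-1, encoded by Mtf1, binds metal response elements (MREs) in their promoters. Mt3 is the form enriched in the nervous system, also called growth inhibitory factor, and is known to be much less responsive to metals and hormones.

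The promoters of the 3 genes are shown because Mt1 and Mt2 are known to be induced through elements in theirs. The sequences are the 250 bases before the annotated start site, from RefSeq on GRCm38.p6, 5′ to 3′ on the + strand, at chr8:94178839-94179088 for Mt1, chr8:94172368-94172617 for Mt2 and chr8:94152357-94152606 for Mt3. All 3 genes matched the promoter table. Capitals mark matches to the MRE core, searched as TGCACNC or TGCGCNC on both strands.
Mt1: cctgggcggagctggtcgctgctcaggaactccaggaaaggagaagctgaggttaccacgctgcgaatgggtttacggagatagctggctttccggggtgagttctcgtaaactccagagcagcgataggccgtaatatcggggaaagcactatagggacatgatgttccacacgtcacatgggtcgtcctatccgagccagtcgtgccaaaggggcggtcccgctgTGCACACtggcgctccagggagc
Mt2: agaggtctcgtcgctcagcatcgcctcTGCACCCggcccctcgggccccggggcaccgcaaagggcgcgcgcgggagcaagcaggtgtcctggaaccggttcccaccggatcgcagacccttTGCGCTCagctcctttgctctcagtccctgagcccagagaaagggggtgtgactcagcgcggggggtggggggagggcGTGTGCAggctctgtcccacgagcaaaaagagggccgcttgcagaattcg
Mt3: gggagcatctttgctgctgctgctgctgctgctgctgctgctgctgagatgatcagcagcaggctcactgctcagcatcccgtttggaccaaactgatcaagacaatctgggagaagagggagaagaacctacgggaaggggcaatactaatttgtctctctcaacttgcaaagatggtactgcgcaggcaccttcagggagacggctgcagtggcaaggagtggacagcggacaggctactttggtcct

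The search covered the whole window of 300 bases, that is, these bases and the 50 from the start site on, which are not printed. In it Mt2 held 4 MRE matches, Mt1 held 3 and Mt3 held 1. Of 32851 promoter windows of the same length, 25.7% held at least 1 such match, 1.97% held at least 3 and 0.52% held at least 4. Counting the start site as base 0, the matches of Mt2 began at -223, -128, -50 and 4, those of Mt1 at -23, 2 and 20, and the one of Mt3 at 27. The antioxidant response core TGACNNNGC, on both strands, had 1 match in Mt2, at -79 to -71, and 12.4% of all windows held one. The GC box GGGCGG had 3 matches in Mt1, of which the one on the - strand overlaps the MRE match at 2 to 8, and 35.7% of all windows held it. The glucocorticoid receptor hexamer AGAACA, the STAT core TTCNNNGAA and the E-box CACGTG were not found in these windows on either strand, against 19%, 8.3% and 7.2% of all windows. A match is a description of the letters, and no match says only that the letters are absent from this window. The windows are placed by the annotated start site, and bases beyond them were not searched. With another start site the counts of each gene could differ, so they do not rank the 3 promoters. Of the Mt1 matches to the MRE, those at 2 and 20 lie after the annotated start site, in the part not printed.

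**Figure D1:**
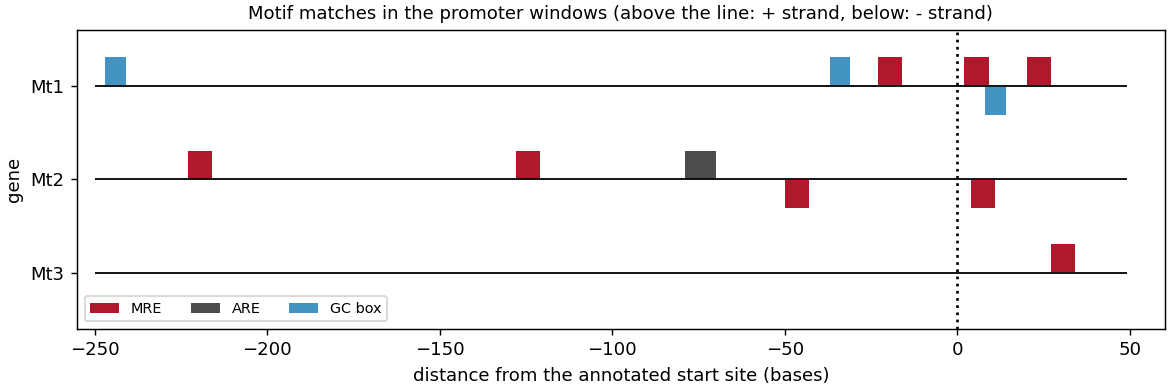
Positions of motif matches in the promoter windows of Mt1, Mt2 and Mt3, from 250 bases before the annotated start site (dotted line) to 50 bases from it on; the axis is distance in bases, boxes above each line are + strand matches and boxes below are - strand matches. Mt1 and Mt2 hold 3 and 4 MRE matches, and the single match of Mt3 lies after the start site.

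The deposited values are MAS5 signals on a linear scale. The arrays were not at a common level. Relative to sham, the median of the kept probe sets was shifted on the log2 scale by -0.13 after 1 shock at 2 h, 0.40 after 1 shock at 6 h, 0.51 after 7 shocks at 2 h and 0.49 after 7 shocks at 6 h. Each array was therefore centred on this median, and a reading below is the centred signal on a linear scale, with a pseudocount of 1.2 included. A difference is a log2 difference between 2 centred readings, and a gene is called past 2-fold at 1 or more on that scale in either direction. The VMH is the region in the sample titles and source names, the tissue field says hypothalamus, and the description field instead gives the PVN, another hypothalamic nucleus. All 4 VMH markers on the array were measured, with a summed reading of 1912 to 3106, and 3 of 4 PVN markers, with a summed reading of 136 to 239.9, and sums over different probe sets do not show which region prevails. The PVN markers had a median against sham of 0.43 and 0.26 after 1 shock at 2 h and 6 h, and of 1.68 and 1.61 after 7 shocks, with Oxt and Avp, the genes of oxytocin and vasopressin, past 2-fold higher at both of the latter times, beside 7.06% and 7.39% of all genes. After 1 shock at 6 h Avp was past 2-fold higher as well (2.32), beside 7.24% of all genes, while Oxt stood at -0.52. Oxt and Avp were both dim and passed the filter only through the arrays where they were high. The VMH markers had medians of -0.10 and 0.59 after 1 shock and 0.28 and 0.40 after 7 shocks. The part of dissected region in the metallothionein readings was not tested. Choroid plexus markers (0 of 3) and blood markers (0 of 2) did not pass the filter on low values.

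Mt1 carried its highest readings on both single-shock arrays. Its probe set read 856.2 on the sham array, 1252 after 1 shock at 2 h, 1445 after 1 shock at 6 h, 752.2 after 7 shocks at 2 h and 698.8 after 7 shocks at 6 h. The deposited signals in the same order were 717.2, 958.6, 1596.2, 898.1 and 820.6, which placed it between percentiles 95.2 and 97.8 of all signals on its array. The highest centred reading was 2.07 times the lowest. After centring, both single-shock arrays stood above sham and both 7-shock arrays below it, but as deposited the 7-shock signals were above sham too. This probe set carries the suffix that Affymetrix gives to probes able to match more than 1 transcript, so the reading may not be of Mt1 alone.

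Mt2 was also highest after a single shock, and lowest 2 h after the last of 7. It read 708.7 on the sham array, 964.4 after 1 shock at 2 h and 1084 after 1 shock at 6 h, against 472.2 after 7 shocks at 2 h and 876.1 after 7 shocks at 6 h. Its deposited signals were 593.4, 738.3, 1197.4, 563.3 and 1029.2 in the same order. The highest centred reading was 2.30 times the lowest. Its centred reading after 7 shocks at 6 h stood above sham, where that of Mt1 stood below.

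Mt3 was low on 1 array alone. It read 109.1 on the sham array, 95.3 after 1 shock at 2 h, 104.8 after 1 shock at 6 h and 96.0 after 7 shocks at 6 h, and these 4 readings lay close together. After 7 shocks at 2 h it read 40.7. As deposited it was 90.3 for sham, 71.9 and 114.7 for the single-shock arrays at 2 h and 6 h, and 47.4 and 111.7 for the 7-shock arrays, so the 7-shock 2 h array was the lowest before centring too. Its place among all signals was percentile 57.7 there and 74.1 to 76.5 on the others.

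**Figure D2:**
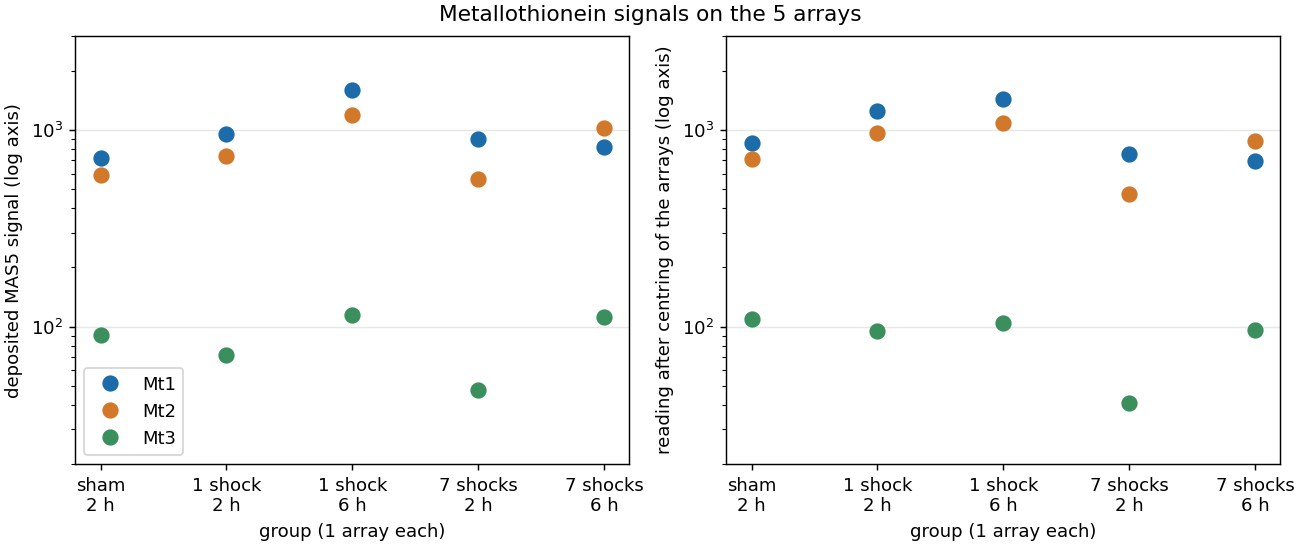
Signals of Mt1, Mt2 and Mt3 on the 5 arrays, as deposited (left) and after centring (right), on log axes; each point is 1 array and there are no error bars because each group is 1 array. After centring, Mt1 and Mt2 are highest on the single-shock arrays, and Mt3 reads 40.7 on the 7-shock 2 h array against 95.3 to 109.1 on the others. As deposited, Mt2 is higher on the 7-shock 6 h array (1029.2) than on the 1-shock 2 h array (738.3).

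After 1 shock, neither inducible metallothionein passed 2-fold against sham. At 2 h, the time matched to sham, Mt1 differed by 0.55, Mt2 by 0.44 and Mt3 by -0.19. None of the 3 members was called, in a comparison that called 13.1% of all genes. For Mt1, 16.9% of genes had a larger difference, and for Mt2 20.9%. At 6 h after 1 shock, not matched in time, Mt1 differed from sham by 0.76, Mt2 by 0.61 and Mt3 by -0.06. Again 0 of 3 members were called, against 15% of all genes. Without scaling of the arrays Mt1 and Mt2 stood at 1.15 and 1.01 in this comparison, and Mt3 at 0.34, where the median of all genes was 0.46.

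At 2 h after 7 shocks, Mt3 had the largest difference from sham of the 3 members, and it was a lower reading. Mt3 differed by -1.42, a reading 2.68 times lower than in sham, and 2.7% of genes lay further down. Mt2 differed by -0.59 and Mt1 by -0.19. Thus 1 of 3 members was called, against 14% of all genes. Without scaling the differences were -0.91 for Mt3, -0.07 for Mt2 and 0.32 for Mt1, with the median of all genes at 0.51, so Mt1 turned sign and none of the 3 was called. At 6 h after 7 shocks the differences from the 2 h sham were -0.29 for Mt1, 0.31 for Mt2 and -0.18 for Mt3, and 0 of 3 were called against 14.7% of all genes. Without scaling Mt1 and Mt3 turned sign there, to 0.19 and 0.30. The 4 comparisons with sham share 1 sham array.

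The widest gap common to all 3 members lay between 7 shocks and 1 shock at 2 h. Mt1 read 752.2 after 7 shocks against 1252 after 1 shock (-0.73). Mt2 read 472.2 against 964.4 (-1.03), and Mt3 read 40.7 against 95.3 (-1.23). Of the 3 members 2 were called, Mt2 and Mt3, and 14.8% of all genes were. The shares of genes lying further down were 12.1% for Mt1, 6.5% for Mt2 and 4.2% for Mt3. The call of Mt2 sat at the threshold, at -0.97 when the arrays were centred on the astrocyte markers and -0.995 with the larger pseudocount. Without scaling the differences were -0.09, -0.39 and -0.59 for Mt1, Mt2 and Mt3, while the median of all genes was 0.64. The direction was thus lower on the deposited scale too, but no member was then past 2-fold.

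At 6 h the comparison of 7 shocks with 1 shock set Mt1 apart from the other members. Mt1 read 698.8 against 1445, a difference of -1.05. Mt2 read 876.1 against 1084 (-0.31) and Mt3 96.0 against 104.8 (-0.13). The call of 1 in 3 stood against 17.6% of all genes. For Mt1 8.1% of genes lay further down, and its difference was -0.94 after quantile normalization and -0.96 without scaling, both just inside the threshold. All 3 members were below 0 in both comparisons of 7 shocks with 1 shock, which share no array. At 6 h, however, 33.5% of genes lay further down than Mt2 and 44.6% further down than Mt3, with the median of all genes at -0.05. The share of all genes below 0 in both comparisons was not counted.

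Between 2 h and 6 h after a single shock the members differed little, by 0.21 for Mt1, 0.17 for Mt2 and 0.14 for Mt3. This called 0 of 3, against 16.1% of all genes. After 7 shocks the same interval gave 0.89 for Mt2 and 1.24 for Mt3, with readings of 876.1 against 472.2 and 96.0 against 40.7. Mt1 differed by -0.11. The call of Mt3, 1 of 3 members against 13.7% of all genes, became 0.90 with the arrays centred on the astrocyte markers. This comparison shares the 7-shock 2 h array with the comparison of 7 shocks and sham at 2 h, so both rest on the same low Mt3 reading.

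**Figure D3:**
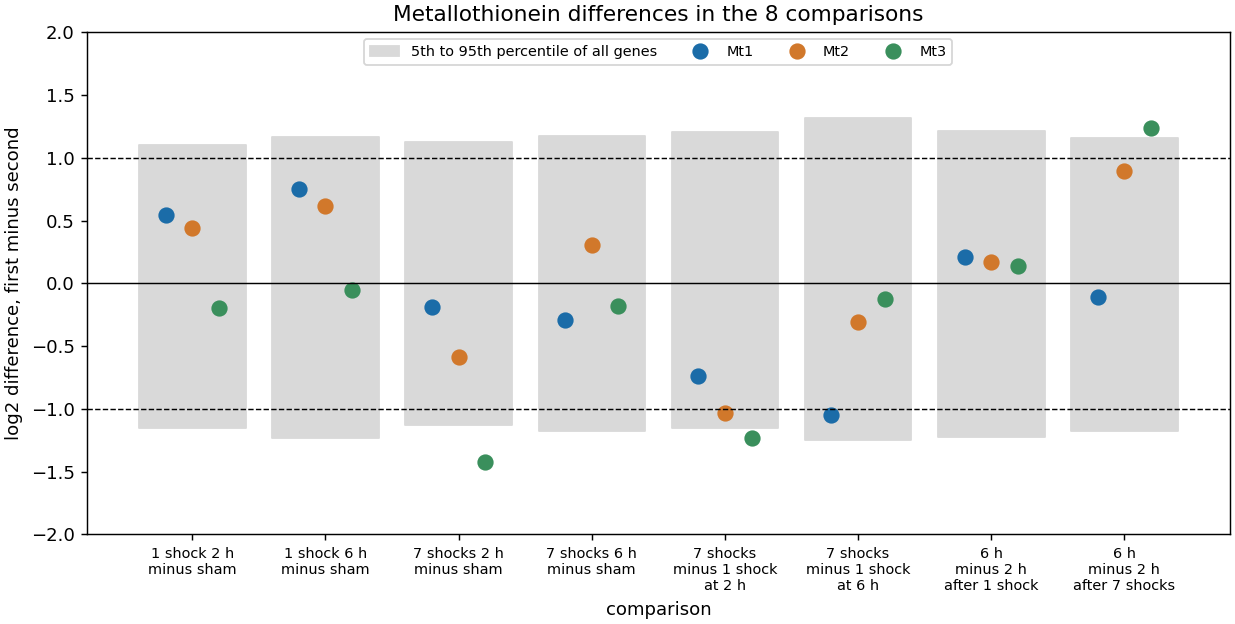
Log2 differences of Mt1, Mt2 and Mt3 in the 8 comparisons, with grey bars from the 5th to the 95th percentile of all 6658 genes and dashed lines at 2-fold; each point compares 2 arrays. Most points lie inside the grey bars, and Mt3 lies outside them in the 3 comparisons that use the 7-shock 2 h array.

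The 3 members were also set against each other, since the scaling of an array cancels when the log2 difference of one member is taken less that of another. Between 2 h and 6 h after 7 shocks, the difference of Mt2 less that of Mt1 was 1.00, and Mt3 less Mt1 gave 1.35. After a single shock the same quantities were -0.04 and -0.07, so the members differed almost equally between these times. Against sham, Mt2 less Mt1 gave -0.10 at 2 h and -0.14 at 6 h after 1 shock, and -0.40 at 2 h and 0.60 at 6 h after 7 shocks. The gap between this pair was thus wider after 7 shocks, on single arrays and untested. Mt3 less Mt1 gave -0.74 at 2 h and -0.81 at 6 h after 1 shock. Over the 5 arrays, the root mean square distance between mean-subtracted profiles was 0.33 for Mt1 and Mt2, 0.29 for Mt2 and Mt3, and 0.51 for Mt1 and Mt3. The median distance from each member to all genes was 0.53 for Mt1, 0.54 for Mt2 and 0.63 for Mt3. Of all genes, 12.2% were nearer to Mt1 than Mt2 was, and 1.8% were nearer to Mt3 than Mt2 was.

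The genes with the most similar profiles were named by this distance. Nearest to Mt1 were Cmc2 (0.029), a mitochondrial assembly factor, the fatty acid elongase Elovl5 (0.079), the secreted protease Htra1 (0.084), the proteasome chaperone Psmd10 (0.091) and Mylk (0.095), the myosin light chain kinase. Elovl5 read 653.4 on sham, 1078 and 1224 after 1 shock at 2 h and 6 h, and 573.3 and 594 after 7 shocks. Nearest to Mt2 were Lor (0.066), Tm2d2, Ubxn11, the septin Septin6 and Rabl3 (0.11). Nearest to Mt3 were Anapc15 (0.096), a subunit of the anaphase-promoting complex, the SNARE Use1, the ER degradation factor Derl2, the GTPase Rab23 and the sorting nexin Snx16 (0.14). Use1 read 551.8 on sham and 214.2 after 7 shocks at 2 h, with 425 to 528.9 on the others. With 5 points per profile and 6658 genes, close matches are frequent, and this ranking is a description.

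A further probe set of Mt1 was too dim to be kept. Its deposited signals were 3.4 for sham, 0.8 and 1.4 after 1 shock at 2 h and 6 h, and 13.9 and 17.3 after 7 shocks at 2 h and 6 h. The first 3 lie below the 25th percentile of all values, which is 6.1. It was highest on the 7-shock arrays, whereas the bright probe set was highest on the single-shock arrays. The related gene Mt4, a form of squamous epithelium that shares the cluster, was as dim, at 1.2 to 6.3. In the gene order of GRCm38.p6 the cluster runs Mt4, Mt3, Mt2, Mt1, between Bbs2, a ciliary trafficking gene, and the nuclear pore gene Nup93. Bbs2 read 48.9 on sham, 64.8 and 180.7 after 1 shock at 2 h and 6 h, and 75.9 and 25.2 after 7 shocks. Nup93 read 36.1 on sham, 69.8 and 86.1 after 1 shock, and 79.7 and 40.8 after 7 shocks. Both flanking genes were thus highest after 1 shock at 6 h, as were Mt1 and Mt2. Both stood above sham after 7 shocks at 2 h, where the 3 metallothioneins stood below it after centring. The next measured genes outward were highest elsewhere, Nudt21 after 7 shocks at 2 h (128.9) and Herpud1 after 7 shocks at 6 h (99.2). The share of all genes highest on each array was not counted.

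Since Mt1 and Mt2 are expressed by astrocytes, the astrocyte markers were set beside them. All 13 markers were measured and none had a signal of 0. Their summed reading was 10943 on sham, 12100 and 12175 after 1 shock at 2 h and 6 h, and 10746 and 11419 after 7 shocks at 2 h and 6 h. The sum was thus highest on both single-shock arrays, as for Mt1 and Mt2, by a smaller factor. It was above sham after 7 shocks at 6 h too, as for Mt2 but not for Mt1 after centring. The sum leans on its brightest members, Ndrg2 (3115 to 3799) and Glul (2625 to 3191). By count, 8 of 13 markers were above sham at each time after 1 shock, with medians of 0.08 beside 0.005 and 0.065 over all genes. In bulk tissue, fewer cells of a type and less RNA per cell cannot be told apart. In the comparison of 7 shocks with 1 shock at 2 h the list had a median of -0.19, with 4 of 13 above 0 and none past 2-fold, beside a median of 0.00 over all genes. Its lowest members there were the water channel Aqp4 (-0.84) and the gap junction protein Gja1 (-0.50), then S100b (-0.36), the glutamate transporter Slc1a3 (-0.35), Aldh1l1 (-0.35), glutamine synthetase Glul (-0.26), Aldoc (-0.19), Fgfr3 (-0.18) and Ndrg2 (-0.08). Its highest were the glutamate transporter Slc1a2 (0.70), the intermediate filament Gfap (0.63), Gjb6 (0.46) and Sparcl1 (0.12). Mt2 and Mt3 lay below every astrocyte marker in this comparison.

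Against sham the list medians were 0.08 at both times after 1 shock, 0.00 after 7 shocks at 2 h and -0.02 after 7 shocks at 6 h, with 1 call, Aldh1l1 at -1.28 after 1 shock at 6 h. Microglial markers, of which 6 of 10 on the array were measured, had a median of -0.995 between 7 shocks at 2 h and sham, with 3 past 2-fold lower, where 6.92% of all genes were. The list was mixed there, with 2 of 6 above sham, C1qb (0.89) and Laptm5 (0.82), named after their values were seen. At 6 h after 7 shocks, where Mt3 was close to sham, the microglial median was -0.71 with 2 lower, beside 7.28%. After 1 shock it was -0.16 and -0.28 with 1 lower at each time, beside 6.91% and 7.75%. The summed reading of the microglial markers was 1550 on sham, 1335 and 1519 after 1 shock at 2 h and 6 h, and 1582 and 1489 after 7 shocks. By the sum, these markers were thus not lower than sham on the 7-shock 2 h array. Endothelial markers (4 of 8 measured) had a median of -0.90 after 1 shock at 2 h and -0.75 after 7 shocks at 2 h, with 2 lower in each, beside 6.91% and 6.92%. At 6 h after 1 shock their median was 0.46, with 2 higher and 1 lower beside 7.24% and 7.75%. Tek, 1 of the higher pair and named after its values were seen, read 93.6 there and at most 22.8 on the others. It passed the filter on low values only through that array, so the count of higher genes and the median there support nothing. At 6 h after 7 shocks the endothelial median was -0.13 with none past 2-fold. The summed reading of these markers was 95.8 to 262.9. The part of these cell types in the metallothionein readings was not tested.

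**Figure D4:**
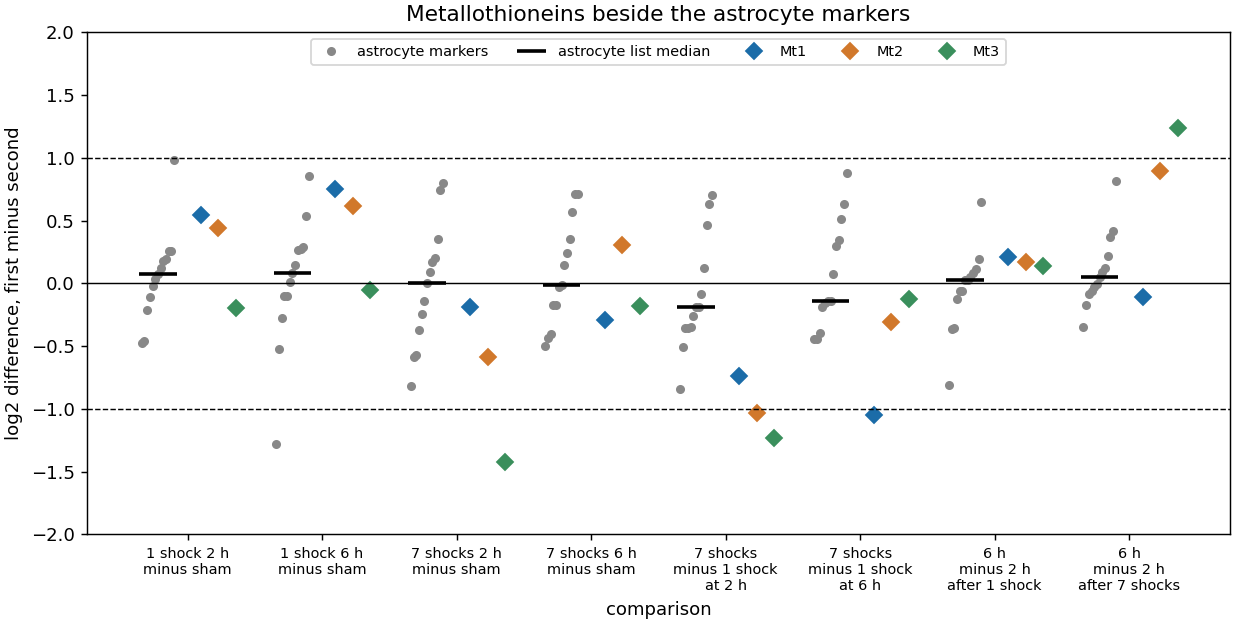
Log2 differences of the 13 astrocyte markers (grey points, black bar for their median) beside Mt1, Mt2 and Mt3 (diamonds) in the 8 comparisons; dashed lines mark 2-fold. In the comparison of 7 shocks with 1 shock at 2 h, Mt2 (-1.03) and Mt3 (-1.23) lie below all 13 markers, whose lowest is Aqp4 at -0.84.

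Genes of zinc sensing and transport had mixed profiles. Of 24 listed, 14 were measured, and their median against sham was -0.01 and 0.13 after 1 shock at 2 h and 6 h, and -0.05 and 0.03 after 7 shocks. After 1 shock at 2 h 3 were past 2-fold lower and 0 higher, beside 6.91% and 6.22% of all genes. Slc39a9 (-1.18) was among these 3 and passed the filter on low values only through the 7-shock 2 h array, so this count supports nothing. After 7 shocks at 2 h 3 were higher and 0 lower, beside 7.06% and 6.92%, but Slc39a9 and Slc30a7 among these passed the filter on low values only through that array, so the count supports nothing. Slc30a6, a zinc transporter named after its values were seen, stood above sham after 1 shock (0.38 at 2 h and 0.63 at 6 h). It stood below sham after 7 shocks (-0.31 and -0.14). Mt1 had these signs after centring only, and a likeness picked from 14 genes supports nothing. Mtf1 read 51.5 on sham, 24.5 and 54.9 after 1 shock at 2 h and 6 h, and 110.5 and 81.5 after 7 shocks. Its low reading fell on the 1-shock 2 h array, where Mt1 and Mt2 stood above sham. Its other kept probe set differed, at -0.60 where the first gave 1.10 for 7 shocks at 2 h against sham. The zinc transporter Slc39a9 read 27.5 on sham, 12.1 after 1 shock at 2 h and 79.4 after 7 shocks at 2 h. The zinc exporter Slc30a1, known as a target of MTF-1 and named here after its values were seen, read 37.9 on sham, 36.4 and 51.7 after 1 shock at 2 h and 6 h, and 34.0 and 34.7 after 7 shocks.

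Among copper genes, 6 of 11 were measured. Their medians against sham were 0.11 and 0.13 after 1 shock at 2 h and 6 h and 0.00 and 0.04 after 7 shocks. The copper pump Atp7a read 15.3 on sham, 55.7 after 1 shock at 2 h and 45.7 after 7 shocks at 6 h, and 15.4 and 19.2 on the remaining pair of arrays. It passed the filter only through the pair of arrays where it was high.

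Iron genes were mostly below sham on all 4 ECS arrays, and lowest by their median on the array where Mt3 was low. Of 11 listed, 6 were measured, and after 7 shocks at 2 h all 6 were below sham, 4 of them past 2-fold, with a median of -1.06 beside 0.00 over all genes. In that direction 6.92% of all genes were past 2-fold. In each of the other comparisons with sham 5 of 6 were below it. The medians were -0.66 and -0.53 after 1 shock at 2 h and 6 h and -0.41 after 7 shocks at 6 h, where Mt3 was close to sham. Over all genes these medians were 0.005, 0.065 and 0.017, and the share of all genes below sham was not counted. The 4 comparisons share 1 sham array, so a high sham reading alone would place a gene below sham in all of them. The ferroxidase Heph read 86.1 on sham and 11.2 on the 7-shock 2 h array (-2.94). The others past 2-fold, named after their values were seen, were the metal importer Slc11a2 (-1.69), the transferrin receptor Tfrc (-1.09) and the iron sensor Ireb2 (-1.02). Between 2 h and 6 h after 7 shocks all 6 were above 0, 3 of them past 2-fold, with a median of 0.98. Of all genes 6.85% were past 2-fold in that direction. Both comparisons share the 7-shock 2 h array, as they do for Mt3. The ferritin heavy chain Fth1 varied little, from 4326 to 4959.

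Antioxidant genes lay slightly higher on the array where Mt1 and Mt2 were highest. Of 26 listed, 19 were measured. At 6 h after 1 shock 15 of 19 were above sham, with a median of 0.36 beside 0.06 over all genes. Of the 19, 1 was past 2-fold higher and 1 lower, where 7.24% and 7.75% of all genes were. The higher one was Nfe2l2, named after its values were seen. It passed the filter on low values only through that array, at 54.7 against 20.0 to 40.0 on the others, so its call supports nothing. At 2 h after 1 shock 14 of 19 antioxidant genes were above sham, with a median of 0.15 beside 0.005. After 7 shocks 10 and 11 of 19 were above sham at 2 h and 6 h, with medians of 0.02 and 0.04 beside 0.003 and 0.017. The share of all genes above sham was not counted. In the comparison of 7 shocks with 1 shock at 6 h the median was -0.20 beside -0.05, and at 2 h it was -0.20 beside 0.00. The sulfiredoxin gene Srxn1, a target of NRF2, read 133.6 on sham, 442.5 and 189.8 after 1 shock at 2 h and 6 h, and 203.7 and 507.8 after 7 shocks at 2 h and 6 h. Its 4 probe sets were all above sham after 7 shocks at 6 h, by 1.07 to 2.47, a comparison in which Mt2 was above sham and Mt1 and Mt3 below it after centring, though above it without scaling.

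Genes of the other known inducers showed mixed profiles. Of 15 glucocorticoid genes 13 were measured. After 1 shock at 2 h 4 were past 2-fold higher and 0 lower, with a median of 0.27, where 6.22% and 6.91% of all genes were. After 1 shock at 6 h, where Mt1 and Mt2 were highest, 1 was higher and 4 lower, with a median of -0.18, beside 7.24% and 7.75%. After 7 shocks 2 were higher and 0 lower at each time, with medians of 0.26 at 2 h (beside 7.06% and 6.92%) and 0.03 at 6 h (beside 7.39% and 7.28%). Between 2 h and 6 h after 1 shock 7 of 13 were lower and 1 higher, with a median of -1.04, beside 7.87% and 8.2% of all genes, while Mt1, Mt2 and Mt3 differed little. The kinase gene Sgk1 read 103.8 on sham and 231.4 to 345.3 on all 4 ECS arrays. On those after 7 shocks Mt1 stood below sham after centring and above it without scaling. The zinc finger factor Zbtb16 read 39.8 on sham, 170.6 after 1 shock at 2 h and 19.8 at 6 h, where Mt1 and Mt2 were highest. The clock gene Per1 read 31.8 on sham and 68.5 and 81.2 at 2 h after 1 and 7 shocks. Of 19 genes of IL-6 and STAT3 signalling 9 were measured, and the shares of all genes are those just given. After 1 shock the median was 0.47 at 2 h, with 3 past 2-fold higher and 1 lower, and 0.14 at 6 h, with 0 higher and 1 lower. After 7 shocks it was 0.29 at 2 h, with 1 higher and 0 lower, and -0.08 at 6 h, with 1 higher and 1 lower. Stat3 read 35.9 on sham, 88.9 and 56.4 after 1 shock at 2 h and 6 h, and 54.3 and 104.2 after 7 shocks. Its other kept probe set was also above sham on all 4 ECS arrays but ranked them otherwise. It gave 2.11 after 1 shock at 2 h and 1.05 after 7 shocks at 6 h, where the first gave 1.31 and 1.54. The CNTF receptor gene Cntfr read 51.4 on sham and 15.0 to 109.3 on the others, and its other probe set was at -0.96 where the first was at 1.09 for 7 shocks at 2 h against sham.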

How the data were processed

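The authors deposited 1 MAS5 signal intensity per probe set and array, on a linear scale (MAS5 per the submitters' processing notes). The sources used here give no software version, target intensity or detection call. Of 22690 probe sets, 64 controls, 691 with several gene symbols and 1555 with none were left out. The remaining 20380 were named by the platform annotation, and 20351 matched a RefSeq gene by gene ID. The pseudocount was the 10th percentile of all values (1.2). The top 50% of probe sets by mean signal (28.5 or more) were kept, 10390 probe sets and 6658 genes. Centring used the median of these on each array, and a gene took its brightest kept probe set. With 1 array per group no test was made. The processing functions were tested on simulated data.

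The members and lists were chosen with earlier results of these data known. Named genes were the members, list genes past 2-fold in at least 2 of the 4 comparisons with sham (at most 4 per list), all astrocyte markers and the 5 nearest profiles for members with a log2 range of at least 1. Alternatives were other scalings, pseudocounts, filters and probe set rules. Python 3.11.15, numpy 2.4.6, pandas 2.3.3 and matplotlib 3.10.9 were used.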

Additional observations from a re-analysis of the deposited data

Results flagged for a closer look

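Against sham, the difference of Mt1 was positive after 1 shock and negative after 7 shocks at both times. It was 0.55 and -0.19 at 2 h, -0.73 apart, and 0.76 and -0.29 at 6 h, -1.05 apart. Mt2 showed opposite signs at 2 h, 0.44 after 1 shock and -0.59 after 7 shocks, -1.03 apart. Between 2 h and 6 h Mt1 differed by 0.21 after 1 shock and -0.11 after 7 shocks, -0.31 apart. Without scaling of the arrays Mt1 was above sham after 7 shocks as well, at 0.32 and 0.19. Each sign rests on 1 array per group, the pairs against sham share the sham array, and none of these differences was tested.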

How the results depend on the processing

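Under 10 alternatives, 224 differences of Mt1, Mt2 and Mt3 were recomputed, and 213 kept their side of the 2-fold threshold and, where called, their direction. Of the rest, 8 fell back inside the threshold, 2 went past it, 1 uncalled difference crossed 0 with a shift of at least 0.5 and 0 calls reversed. In all, 5 differences turned sign, each within the threshold. Without scaling, Mt1 and Mt2 passed 2-fold at 6 h after 1 shock against sham (1.15 and 1.01), and Mt1 stood at 0.32 for 7 shocks at 2 h against sham. There Mt3 stood at -0.91. Inside the threshold Mt1 also shifted, to -0.09 for 7 shocks less 1 shock at 2 h and 0.74 for 6 h less 2 h after 1 shock. Also without scaling, 7 shocks less 1 shock gave -0.39 for Mt2 and -0.59 for Mt3 at 2 h, and -0.96 for Mt1 at 6 h. Quantile normalization gave -0.94 for the last. Centring on the astrocyte markers gave -0.97 for Mt2 in 7 shocks less 1 shock at 2 h, and 0.90 for Mt3 in 6 h less 2 h after 7 shocks. With the pseudocount at the 25th percentile (6.1) the former was -0.995. The cause of these shifts was not tested.

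The mean share of genes past 2-fold over the 8 comparisons was 14.9%, against 27.4% with no filter on low values and 7.13% in the top 25% of probe sets. Mt3 is absent from that last set, and Mt1 from the set without probe sets of suffix s, x or a, so they have no value there. All comparisons rest on 1 array per group, the 6 h arrays have no sham of their own, and the repeat of the array work that the design mentions was not analysed here.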
